A study of Mus musculus with 2 samples.

Results

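Cornified envelope genes were compared between UVB-induced skin tumours of P2ry6-/- and wild-type mice. The members were the array genes whose name begins with Sprr or Lce and a digit, together with the envelope precursors and fused-type S100 proteins Lor, Ivl, Flg2, Hrnr, Rptn, Tchh, Tchhl1, Crnn, Crct1, Kprp and Lelp1 and the enzymes Tgm1, Tgm3, Tgm5 and Casp14. The rule left out the S100 genes themselves, and filaggrin (Flg) was not analysed here. It took 60 probes of 51 genes, out of 37321 gene names on the array, and 50 of the 51 genes were measured on both arrays. Total RNA of tumours from male mice, lacking P2ry6 (genotype P2ry6-/-) or wild-type (P2ry6+/+), was hybridised to single-colour Agilent arrays, with 1 array per genotype. Mice of both genotypes were 2 months old at the start, and the dorsal skin was irradiated at 180 mJ/cm2 for the first 10 weeks. Weekly steps of 10 mJ/cm2 then brought the dose to 300 mJ/cm2 by week 22, where it stayed through week 40. The number of tumours or mice behind each RNA sample, the mouse strain and the part of P2ry6 that was deleted are not given in the sources used here. With 1 array per genotype no difference below has a replicate check, and no test between genotypes was run.

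Keratinocytes that leave the basal layer of the epidermis end as flat dead cells whose membrane is lined by the cornified envelope, a sheet of cross-linked protein. Transglutaminases join the precursors by bonds between glutamine and lysine residues. Involucrin forms an early scaffold, loricrin supplies much of the bulk, and small proline-rich (Sprr) proteins bridge them. Late cornified envelope (Lce) proteins and fused-type S100 proteins, which combine a calcium-binding start with long repeats, are added in the uppermost layers. Most of these genes lie side by side in the epidermal differentiation complex on mouse chromosome 3. P2ry6 encodes a G protein-coupled receptor for extracellular UDP.

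The P2ry6 probes went against the genotype labels. Their processed signals, in arbitrary fluorescence units, were 835 and 318 on the P2ry6-/- labelled array, against 364 and 137 on the wild-type-labelled array. On the log2 scale, relative to each array's 75th percentile, P2ry6 was higher by 1.29 ± 0.01 (SD of 2 probes) on the array labelled as lacking it, or 2.44-fold. Since the deleted part is not given, it is unknown whether these probes lie in it. Every direction below therefore refers to the array as labelled.

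The envelope genes were lower, as a group, on the P2ry6-/- labelled array. Of the 50 measured members, 32 (64.0%) were at least 2-fold lower there and 0 were at least 2-fold higher. Over the 19872 genes that both arrays measured, the shares were 5.04% at least 2-fold lower and 4.82% at least 2-fold higher. The members' median log2 difference (P2ry6-/- labelled minus wild-type-labelled) was -1.09, or 2.13-fold lower, against a median of -0.06 and an SD of 0.65 over all genes. All 50 differences lay below 0 on this scale, between -2.47 and -0.11. After quantile or loess normalization, and in the authors' deposited table, 49 of 50 lay below 0. With a stricter filter on dim probes 48 of 49 did. Of the members, 35 belonged to the brightest 10% of genes by mean level, where 5.48% were at least 2-fold lower, 1.46% at least 2-fold higher and the median was -0.23. Some technical precision can be measured. Replicate spots of a probe varied in their log2 difference between the arrays with an SD of 0.122, and different probes of a gene with an SD of 0.375. The error that the scanner files give, carried over to the log2 difference, was 0.204 to 0.282 for the measured member probes. As 32 members lay within 0.25 log2 units of the 2-fold line, the number past it depends on the scaling. It was 16 after quantile normalization, 19 after loess normalization, 20 in the authors' deposited table of log2 values and 49 on the scale of the spike-in probes. In RNA of whole tumours, fewer cornifying cells and less of these RNAs per cell cannot be told apart.

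**Figure D1:**
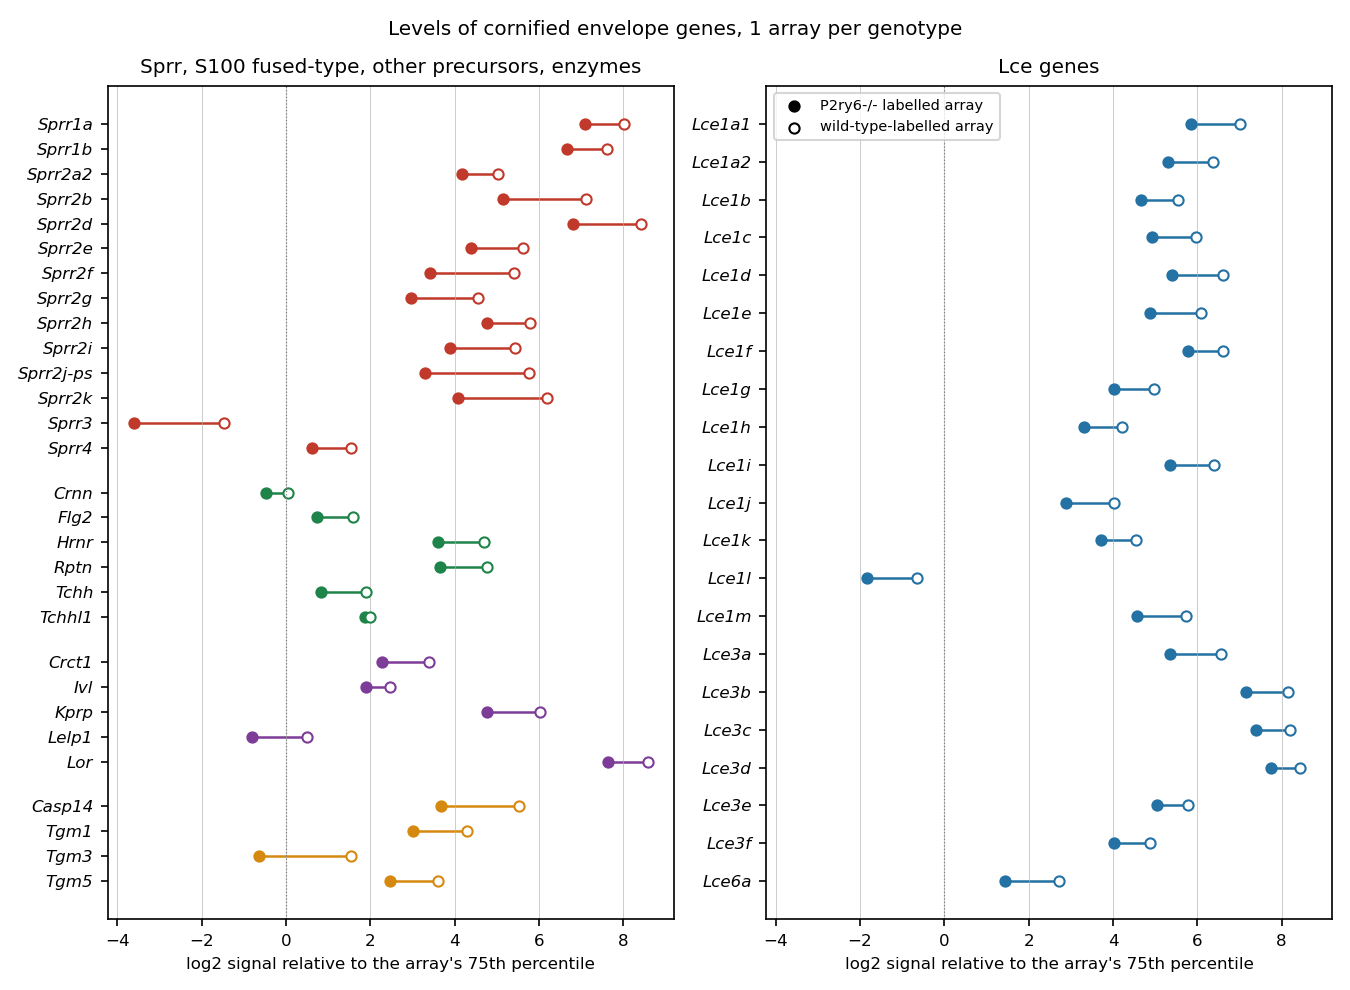
Log2 signal of each measured envelope gene relative to its array's 75th percentile, with the P2ry6-/- labelled array as filled points and the wild-type-labelled array as open points (1 array each, no error bars). The left panel holds Sprr genes, S100 fused-type genes, other precursors and enzymes, and the right panel Lce genes. In all 50 rows the filled point lies left of the open one, with the smallest gap for Tchhl1.

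Sprr2 genes had the widest differences among the structural members. Of 10 measured Sprr2 genes, 9 were at least 2-fold lower on the P2ry6-/- labelled array, with a median log2 difference of -1.61 (3.06-fold). Mouse Sprr2 genes are a tandem family of near-identical repeats, so probes of different members can share sequence. The probes of Sprr2k, Sprr2b and Sprr2j-ps are given to show such shared runs, on mm9, in 5′ to 3′ direction. Capitals mark, in Sprr2k and Sprr2b, the 28-base run that both hold, and in Sprr2j-ps the 14-base run it shares with the Sprr2b probe.
Sprr2k (chr3:92237308-92237367, plus strand): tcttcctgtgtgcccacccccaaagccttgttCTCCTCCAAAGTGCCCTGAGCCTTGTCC
Sprr2b (chr3:92121449-92121508, plus strand): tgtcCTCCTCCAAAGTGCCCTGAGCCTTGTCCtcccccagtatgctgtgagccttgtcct
Sprr2j-ps (chr3:92222836-92222895, plus strand): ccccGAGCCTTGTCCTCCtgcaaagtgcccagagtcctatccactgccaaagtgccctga

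The pseudogene Sprr2j-ps had a signal of 3227 on the P2ry6-/- labelled array, against 18978 on the wild-type-labelled array, a log2 difference of -2.47 (5.54-fold lower). Sprr2k had 5538 on the P2ry6-/- labelled array and 25304 on the wild-type-labelled array, a difference of -2.11 (4.31-fold lower). Sprr2b had 11638 on the P2ry6-/- labelled array and 48428 on the wild-type-labelled array, a difference of -1.97. Because the Sprr2k and Sprr2b probes share 28 of their 60 bases, their values may not be independent readings of separate genes. Sprr2f, whose probe shares no run of 20 bases or more with a probe of another member, had 3507 on the P2ry6-/- labelled array and 14829 on the wild-type-labelled array (-1.99, 3.99-fold lower). Probes were compared with probes only, and not with the transcripts of other members. Sprr2d gave 36380 on the P2ry6-/- labelled array and 118728 on the wild-type-labelled array (-1.62). Both genes were at least 2-fold lower, at signals far above background. Sprr2g, whose RefSeq record is a non-coding RNA, had 2544 on the P2ry6-/- labelled array and 8226 on the wild-type-labelled array (-1.61). Sprr2i had 4861 on the P2ry6-/- labelled array and 14973 on the wild-type-labelled array (-1.54). Sprr2e had 6870 on the P2ry6-/- labelled array and 17112 on the wild-type-labelled array (-1.23). Each of these 3 was read by a single probe. The 2 probes of Sprr2h read 4212 and 19053 on the P2ry6-/- labelled array, against 10611 and 34707 on the wild-type-labelled array, and averaged -1.01 ± 0.33 (SD of probes). The probe of Sprr2a1 was not well above background on either array, with 3.76 on the P2ry6-/- labelled and 3.79 on the wild-type-labelled array.

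Of the 7 members with 2 or more measured probes, Sprr2a2 was the 1 whose probes fell on both sides of 0. The other members had a single measured probe each, so agreement between probes could not be checked for them. Its 3 probes are named here by their first 30 bases, on mm9, to tell them apart.
Sprr2a2 probe 1 (chr3:92054627-92054686, plus strand): taaaaaagtgtctcagtgcttgactgcagt
Sprr2a2 probe 2 (chr3:92058417-92058476, plus strand): ctgctgtttcatttcctgaaataaaaaagg
Sprr2a2 probe 3 (chr3:92060587-92060646, plus strand): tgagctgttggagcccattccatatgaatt

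Probe 1 of Sprr2a2 read 54.4 on the P2ry6-/- labelled array and 397 on the wild-type-labelled array, a log2 difference of -2.78. Probe 2 read 65849 on the P2ry6-/- labelled array and 112730 on the wild-type-labelled array, a difference of -0.69. Probe 3 read 57900 on the P2ry6-/- labelled array and 32600 on the wild-type-labelled array, a difference of 0.91, the only member probe of 59 measured that was higher on the P2ry6-/- labelled array. The gene's mean, -0.85 ± 1.85 (SD of 3 probes), therefore describes none of them, and its direction is not settled by these arrays. All 3 probes list both Sprr2a1 and Sprr2a2 in RefSeq, and probe 1 also lists a transcript that the Sprr2b probe lists.

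The other Sprr genes were lower by smaller amounts, apart from Sprr3. Sprr1a and Sprr1b are cross-bridging precursors that keratinocytes make under stress and in squamous differentiation. Sprr1a read 44508 on the P2ry6-/- labelled array and 89305 on the wild-type-labelled array, a difference of -0.92. The 2 probes of Sprr1b read 57928 and 18917 on the P2ry6-/- labelled array, against 97210 and 47003 on the wild-type-labelled array, with a mean difference of -0.94 ± 0.40 (SD). Neither gene reached 2-fold. Sprr4 read 501 on the P2ry6-/- labelled array and 1010 on the wild-type-labelled array (-0.92). Sprr3, best known from oral and oesophageal epithelium, was dim, with 26.8 on the P2ry6-/- labelled array and 125 on the wild-type-labelled array. Its difference of -2.14 became -1.04 after normexp background correction. Over all 14 measured Sprr genes, 10 were at least 2-fold lower and the median difference was -1.57.

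Lce genes differed less, and more evenly, than Sprr2 genes. All 21 measured Lce genes lay between -1.29 and -0.68, with a median difference of -1.03, and 12 were at least 2-fold lower on the P2ry6-/- labelled array. That number was 3 after quantile normalization, 4 after loess normalization and 5 in the authors' deposited table. The SD of their differences was 0.184, against 0.509 over the 10 Sprr2 genes, and it was below the SD of 0.375 between probes of a gene. The differences among Lce genes are therefore not distinguished from probe error. Of the 14 Lce1 genes, whose proteins are envelope precursors of normal mature epidermis, 9 were at least 2-fold lower, with a median of -1.07. Lce1d read 13707 on the P2ry6-/- labelled array and 33946 on the wild-type-labelled array (-1.22). Lce1e read 9586 on the P2ry6-/- labelled array and 23681 on the wild-type-labelled array (-1.22). Lce1m read 7699 on the P2ry6-/- labelled array and 18555 on the wild-type-labelled array (-1.18). Each of these was lower by 2.27- to 2.33-fold. A dim and a bright Lce1 probe differed by like amounts on the main scale: Lce1l read 92.4 on the P2ry6-/- labelled array and 220 on the wild-type-labelled array (-1.17), and Lce1a1 read 18976 on the P2ry6-/- labelled array and 44515 on the wild-type-labelled array (-1.15). After normexp background correction Lce1l was at -0.81 and Lce1a1 at -1.09. Lce1j read 2400 on the P2ry6-/- labelled array and 5674 on the wild-type-labelled array (-1.16). Lce1a2, at 12833 on the P2ry6-/- labelled array and 28577 on the wild-type-labelled array (-1.07), was measured by a probe that RefSeq also assigns to Lce1a1. The remaining 2 past the 2-fold line were Lce1i, with 13264 on the P2ry6-/- labelled and 29411 on the wild-type-labelled array (-1.06), and Lce1c, with 9957 on the P2ry6-/- labelled and 21540 on the wild-type-labelled array (-1.03). The Lce1c probe is also assigned to Lce1e and Lce1f. Lce1b, Lce1f, Lce1g, Lce1h and Lce1k lay between -0.94 and -0.82.

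Lce3 genes, which in human skin are known for being induced by wounding and in psoriasis, differed least among the Lce groups by median. As said above, differences among Lce genes are not distinguished from probe error, and Lce3a lay within the range of the Lce1 genes. Their median was -0.82 over 6 genes, with a range of -1.21 to -0.68, and 2 were at least 2-fold lower. Lce3a read 13427 on the P2ry6-/- labelled array and 32929 on the wild-type-labelled array (-1.21). Lce3b read 46278 on the P2ry6-/- labelled array and 99146 on the wild-type-labelled array (-1.01). Its probe opens with a run of 28 bases that the Lce3c probe also holds, printed here in capitals on mm9 because it limits how far the genes can be told apart.
Lce3b (chr3:92737872-92737931, plus strand): TCAAGAAAAGCCCAGCTAGTCTTGTTTT
The Lce3d probe shares 25 bases with the Lce3b probe. Lce3c, Lce3d, Lce3e and Lce3f lay between -0.83 and -0.68, none past 2-fold. Lce6a was measured by 3 probes, with differences of -1.08, -1.09 and -1.70 and a mean of -1.29 ± 0.36 (SD), so all of its probes were past the 2-fold line.

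Fused-type S100 genes were spread on both sides of the 2-fold line. Of 6 measured, 3 were at least 2-fold lower on the P2ry6-/- labelled array and the median was -0.96. After quantile or loess normalization, and in the authors' deposited table, 0 were past 2-fold. Repetin (Rptn), an envelope precursor, read 4122 on the P2ry6-/- labelled array and 9450 on the wild-type-labelled array (-1.11). Hornerin (Hrnr), a filaggrin-like repeat protein, read 4009 on the P2ry6-/- labelled array and 8980 on the wild-type-labelled array (-1.08). Trichohyalin (Tchh), which hardens the inner root sheath of the hair follicle, read 584 on the P2ry6-/- labelled array and 1294 on the wild-type-labelled array (-1.06). These 3 were lower by 2.09- to 2.16-fold. The 2 probes of filaggrin-2 (Flg2) read 280 and 1075 on the P2ry6-/- labelled array, against 595 and 1843 on the wild-type-labelled array, and averaged -0.85 ± 0.22 (SD). Cornulin (Crnn) differed by -0.54. Tchhl1, at -0.11, was the member nearest to 0, with 1202 on the P2ry6-/- labelled array and 1372 on the wild-type-labelled array. Its difference was 0.03 after quantile normalization.

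Loricrin and involucrin, the best-known precursors, did not reach 2-fold. Loricrin (Lor) read 65031 on the P2ry6-/- labelled array and 133032 on the wild-type-labelled array, a log2 difference of -0.95 (1.93-fold lower). Involucrin (Ivl), made earlier in differentiation, read 1212 on the P2ry6-/- labelled array and 1930 on the wild-type-labelled array (-0.59). The gap between these 2 differences was close to the SD between probes. Kprp, a proline-rich protein of the upper epidermis, read 8939 on the P2ry6-/- labelled array and 22493 on the wild-type-labelled array (-1.25). Lelp1 read 189 on the P2ry6-/- labelled array and 491 on the wild-type-labelled array (-1.29). Crct1 was measured by a bright and a dim probe, with 41096 and 61.8 on the P2ry6-/- labelled array, against 83440 and 159 on the wild-type-labelled array, and averaged -1.11 ± 0.24 (SD). Of these 5 precursors, 3 were at least 2-fold lower and the median was -1.11.

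The enzymes, which map outside the differentiation complex, were lower as well. All 4 were at least 2-fold lower on the P2ry6-/- labelled array, with a median of -1.56. Casp14, the protease that takes part in breaking down filaggrin and lies on chromosome 10, read 4179 on the P2ry6-/- labelled array and 15985 on the wild-type-labelled array (-1.85, 3.61-fold lower). Tgm1, the membrane-bound transglutaminase on chromosome 14 whose loss causes lamellar ichthyosis in humans, read 2654 on the P2ry6-/- labelled array and 6820 on the wild-type-labelled array (-1.28). Tgm5, on chromosome 2, read 1819 on the P2ry6-/- labelled array and 4259 on the wild-type-labelled array (-1.14). These 3 were each read by a single probe. Tgm3, a transglutaminase of the upper epidermis and the hair follicle on chromosome 2, had probes that differ in size. They are told apart by their first 30 bases, on mm9.
Tgm3 probe 1 (chr2:129874069-129874128, plus strand): tcgctgacttttcctgcaataaattcccta
Tgm3 probe 2 (chr2:129876035-129876094, plus strand): aagtcatccttgccttccttcctttccttc
Probe 1 of Tgm3 read 152 on the P2ry6-/- labelled array and 2119 on the wild-type-labelled array (-3.71). Probe 2 read 292 on the P2ry6-/- labelled array and 481 on the wild-type-labelled array (-0.64). Both were lower on the P2ry6-/- labelled array, but the gene's mean of -2.17 ± 2.18 (SD) carries little information on size.

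**Figure D2:**
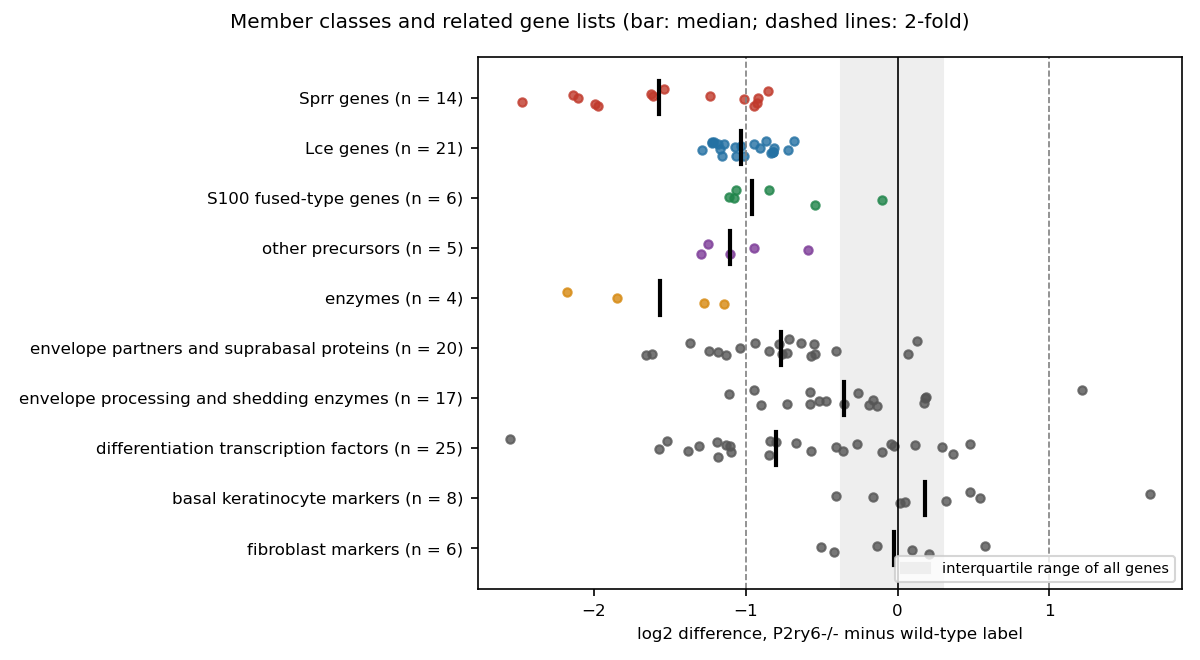
Log2 difference, P2ry6-/- labelled minus wild-type-labelled array, of each gene of the member classes and of 5 related lists. Points are genes, bars the medians, the shaded band the interquartile range of all measured genes and the dashed lines a 2-fold difference. Sprr genes and enzymes have the lowest medians, -1.57 and -1.56, Lce genes form a narrow group around -1.03, and fibroblast markers centre near 0.

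Along the differentiation complex the lower values ran from end to end. The 46 measured members on chromosome 3 span chr3:91884206-93275887 on mm9, 1392 kb from Lor to Tchhl1. Of them 28 were at least 2-fold lower on the P2ry6-/- labelled array, with a median of -1.07. Between the members lie 21 other names of the array, and 11 of these were measured on both arrays. The median of the 11 was -0.27, and 2 were at least 2-fold lower, 2310050C09Rik (-1.55) and 2310046K23Rik (-1.06), with 0 at least 2-fold higher. Prr9 was at -0.95 and Tdpoz8 at -0.01. The rest of the 11 are transcript, probe or interval identifiers and not gene symbols, and ran from -0.96 to 0.44. The median therefore does not describe the named genes alone. Of 953 measured genes elsewhere on chromosome 3, 61 were at least 2-fold lower, 35 were at least 2-fold higher and the median was -0.11. The most negative values were those of Sprr2j-ps, Sprr3, whose dim probe lies between Sprr1b and Sprr1a, and Sprr2k. The Lce genes stayed within their narrow range, and the values nearest to 0 were those of Tchhl1, Crnn and Ivl.

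**Figure D3:**
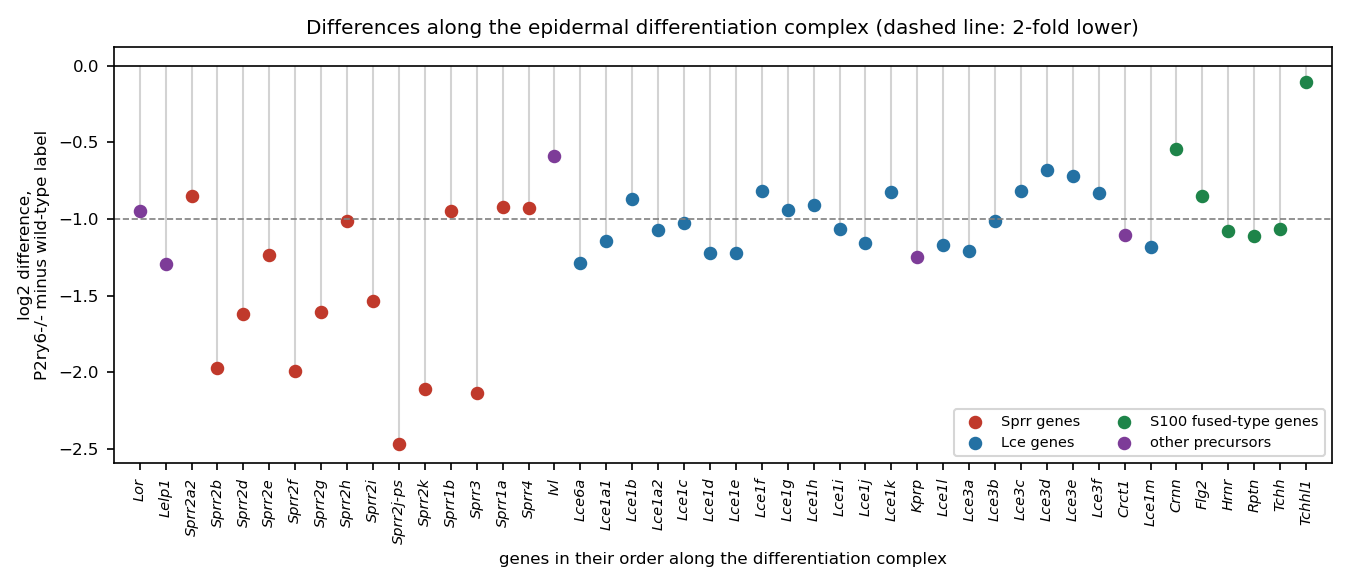
Log2 difference, P2ry6-/- labelled minus wild-type-labelled array, of the 46 measured members on chromosome 3 in their order along the complex, from Lor to Tchhl1. Each point is a gene, and the dashed line marks a 2-fold lower value. The lowest point is Sprr2j-ps at -2.47 and the highest is Tchhl1 at -0.11.

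Promoter motifs were spread unevenly over the classes. AP-1, the Jun and Fos dimer, is known to drive envelope genes in keratinocytes, and TATAAA is a core promoter element. RefSeq promoter entries on GRCm38.p6, from 250 bases before to 50 after the start, covered 46 of the members with 47 entries. Only the 250 bases before the start were searched, in members and in all promoters. TGANTCA, the AP-1 motif, was searched on both strands and stood in 15 of the 47 entries (31.9%), against 2217 of all 32851 promoters (6.75%). By class it stood in 9 of 13 Sprr entries (69.2%), in 4 of 6 fused-type S100 entries (66.7%), and in 0 of 20 Lce entries. TATAAA was also searched on both strands and at any position in the 250 bases, so a match need not lie where a core promoter element would. It stood in 20 of the 47 (42.6%), against 12.4% of all promoters, and in 10 of 13 Sprr entries (76.9%) and 4 of 20 Lce entries. TGANTCA and TATAAA do not overlap in the entries shown. The 250 bases before the start of 3 Sprr2 genes, Lor and an Lce1 gene are printed as examples, with matches to either motif in capitals.
Sprr2k (GRCm38.p6 chr3:92432332-92432581, plus strand): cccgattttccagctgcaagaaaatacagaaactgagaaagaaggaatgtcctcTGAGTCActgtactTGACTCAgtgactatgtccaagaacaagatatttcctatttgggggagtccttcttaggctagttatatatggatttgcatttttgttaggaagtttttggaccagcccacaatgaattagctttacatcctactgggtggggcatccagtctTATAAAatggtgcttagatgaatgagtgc
Sprr2b (GRCm38.p6 chr3:92316455-92316704, plus strand): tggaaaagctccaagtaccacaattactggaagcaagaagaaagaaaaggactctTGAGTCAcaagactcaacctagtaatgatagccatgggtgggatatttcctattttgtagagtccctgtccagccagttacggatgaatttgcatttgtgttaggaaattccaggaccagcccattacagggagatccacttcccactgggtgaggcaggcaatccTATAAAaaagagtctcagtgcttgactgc
Sprr2d (GRCm38.p6 chr3:92338890-92339139, plus strand): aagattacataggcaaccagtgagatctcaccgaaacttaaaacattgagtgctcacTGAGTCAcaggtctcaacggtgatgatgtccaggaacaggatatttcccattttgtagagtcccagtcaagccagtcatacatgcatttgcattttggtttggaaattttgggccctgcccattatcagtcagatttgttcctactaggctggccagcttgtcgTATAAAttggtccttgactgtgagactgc
Lor (GRCm38.p6 chr3:92083143-92083392, minus strand): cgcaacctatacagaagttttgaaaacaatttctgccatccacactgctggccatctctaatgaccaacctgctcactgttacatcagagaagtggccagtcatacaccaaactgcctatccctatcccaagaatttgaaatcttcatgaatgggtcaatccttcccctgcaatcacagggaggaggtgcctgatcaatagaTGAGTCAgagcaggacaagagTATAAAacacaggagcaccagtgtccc
Lce1d (GRCm38.p6 chr3:92687211-92687460, minus strand): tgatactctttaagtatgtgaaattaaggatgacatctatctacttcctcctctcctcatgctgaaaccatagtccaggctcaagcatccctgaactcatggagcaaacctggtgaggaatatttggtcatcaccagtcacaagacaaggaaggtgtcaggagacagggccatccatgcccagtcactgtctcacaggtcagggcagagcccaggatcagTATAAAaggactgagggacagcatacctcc

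In Sprr2b and Sprr2d the AP-1 match ended 188 and 186 bases before the start, Sprr2k held 2 matches with the nearer ending 175 bases before it, and in Lor the match ended 41 bases before it. Lce1d held a TATAAA alone, and is not typical in this, as TATAAA stood in 2 of 13 Lce1 entries. Differences were then set beside the matches. Members with an AP-1 match had a median difference of -1.01 (n = 15, -2.11 to -0.11), and those without one had a median of -1.07 (n = 30, -2.17 to -0.68). By class the direction varied. Within the Sprr genes the medians were -1.54 with a match (n = 9) and -0.92 without (n = 3). Those 3 were Sprr4 (-0.92), the dim Sprr3 (-2.14) and Sprr2a2 (-0.85), whose probes fell on both sides of 0. Their median therefore carries little information. Within the fused-type S100 genes the medians were -0.69 with a match (n = 4) and -1.07 without (n = 2). Within the other precursors they were -0.77 with a match (n = 2) and -1.29 without (n = 1). Other motifs were searched on both strands in the same 250 bases of these entries. CCACCC, bound by KLF factors, stood in 25.5% of member entries and 28.1% of all promoters. The NRF2 motif TGACNNNGC, which can overlap an AP-1 match, stood in 17.0% of member entries and 10.2% of all promoters. The GRHL motif AACNNGTT stood in 2.13% of member entries and 3.64% of all promoters, and the ETS motif AGGAAG in 42.6% of member entries and 29.5% of all promoters. A match is a string of letters and not a shown binding site.

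Lists of genes that act with the envelope had medians below 0, all nearer to it than the members' median. Of 20 measured envelope partners and suprabasal proteins, 7 were at least 2-fold lower on the P2ry6-/- labelled array, 0 were at least 2-fold higher, and the median was -0.77. They included Dsg1a (-1.66), an upper-layer desmosomal cadherin, Krt1 (-1.62) and Krt10 (-1.37), the paired keratins of spinous cells, and Ppl (-1.24), periplakin, which tethers keratins to the envelope. Of 17 enzymes and inhibitors of envelope processing and shedding, 1 was at least 2-fold lower, Spink5 (-1.11), a protease inhibitor. Tgm2 (1.21), the widely expressed tissue transglutaminase, was the 1 that was at least 2-fold higher, by 2.32-fold, in contrast to Tgm1, Tgm3 and Tgm5. Prss8 (-0.95), a membrane serine protease, and Blmh (-0.90), which degrades filaggrin peptides, were not past 2-fold. Both counts are near the shares over all genes, 5.04% lower and 4.82% higher. The list's median was -0.35 on the main scale, -0.13 after quantile normalization, and -0.14 after loess normalization and in the authors' deposited table. Of 25 measured transcription factors of keratinocyte differentiation, 10 were at least 2-fold lower, 0 were at least 2-fold higher and the median was -0.80. That median was -0.64 after normexp background correction, -0.60 after quantile normalization, -0.62 after loess normalization and -0.61 in the authors' deposited table. Elf3, an ETS factor known to activate Sprr2 promoters, differed most, at -2.55 (5.87-fold lower). It was read by 1 probe, at a low log2 level of -2.03 on the P2ry6-/- labelled array, against 0.52 on the wild-type-labelled array. Rora (-1.57) and Hopx (-1.52), both known to promote late keratinocyte differentiation, were also at least 2-fold lower. Trp63, the master factor of the basal layer, was at 0.48.

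Markers of other cells also differed between the arrays, and their part in the envelope values was not tested. Sebaceous gland markers, whose gland opens into the hair follicle, were at least 2-fold lower in 8 of 8 cases, with a median of -3.24. Their summed level, on a linear scale where the array's 75th percentile is 1, was 52.2 on the P2ry6-/- labelled array and 294 on the wild-type-labelled array. Of 10 inner root sheath and hair shaft markers 7 were measured and 4 were at least 2-fold lower, with a median of -1.11 and summed levels of 27.9 on the P2ry6-/- labelled and 29.8 on the wild-type-labelled array. Gata3, by far the brightest of them, made up most of both sums, which therefore say little about the other markers. Krt25 and Krt72 were well above background only on the wild-type-labelled array, and Krt73 on neither. The other measured markers of this list, Krt27 (0.71), Krt28 (0.10) and Gata3 (-0.03), were not lower by 2-fold. Follicles also make Tchh and Tgm3. Of 8 basal keratinocyte markers 0 were at least 2-fold lower and 1, Krt5 (1.66), was at least 2-fold higher. Their summed level was 1371 on the P2ry6-/- labelled array and 1003 on the wild-type-labelled array, with a median difference of 0.18. Krt5 made up most of the gap between these sums, and Krt14, the brightest of the list, was at 0.01. Markers shared by all keratinocytes summed to 2287 on the P2ry6-/- labelled array and 2308 on the wild-type-labelled array (8 measured, 1 at least 2-fold lower and 1 higher, median -0.27). Krt5 is in this list too and raised its sum on the P2ry6-/- labelled array. Of the 8 differences 5 lay below 0, the lowest that of Jup (-1.19), so the near-equal sums do not describe the single markers. Fibroblast markers summed to 74.1 on the P2ry6-/- labelled array and 71.6 on the wild-type-labelled array (6 measured, 0 past 2-fold, median -0.02). Of the markers of oral or oesophageal epithelium, Krt13 was at -0.65 and Krt4 was not well above background on either array. Macrophage markers (5 of 6 measured, 1 at least 2-fold lower and 1 higher) summed to 9.39 on the P2ry6-/- labelled and 6.56 on the wild-type-labelled array, endothelial markers (5 measured, 0 past 2-fold) to 4.14 on the P2ry6-/- labelled and 3.35 on the wild-type-labelled array, and skeletal muscle markers (3 of 5 measured, 1 at least 2-fold higher) to 1.48 on the P2ry6-/- labelled and 0.450 on the wild-type-labelled array. Cd163 of the macrophage list and Myh4 of the muscle list were well above background only on the wild-type-labelled array. Acta1 (3.84) made up most of the muscle sum on the P2ry6-/- labelled array, while Tnnt3 and Mylpf differed by 0.36 and 0.44.

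**Figure D4:**
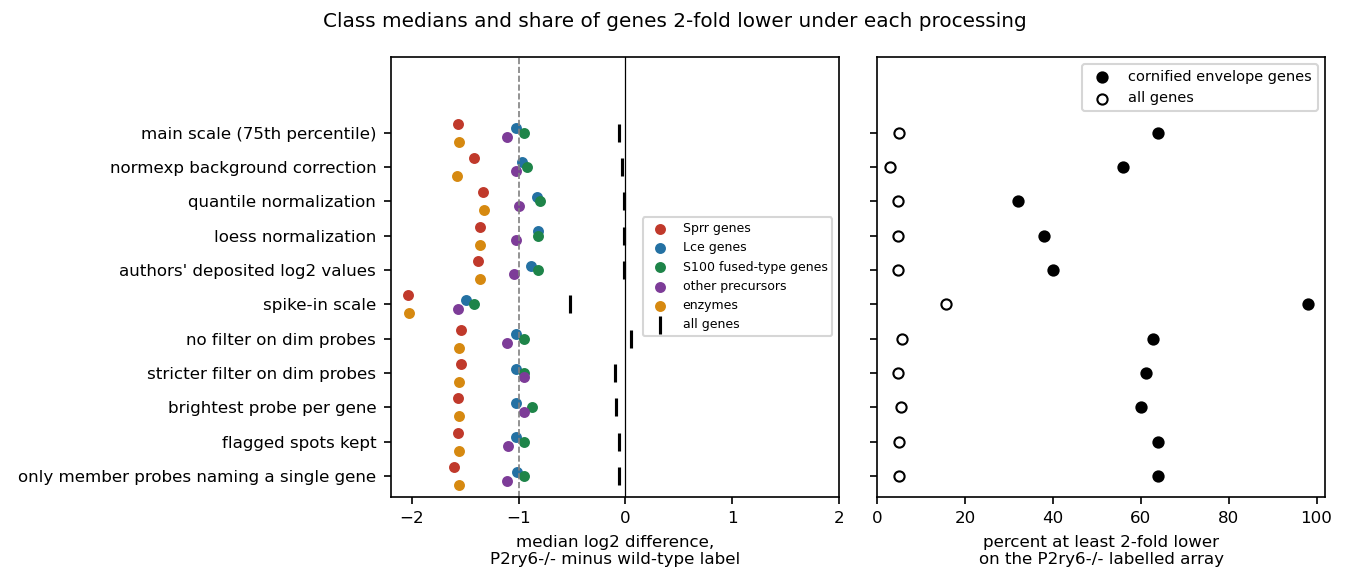
Effect of the processing. The left panel gives the median log2 difference (P2ry6-/- labelled minus wild-type-labelled array) of each member class as points and of all genes as bars, and the right panel the percent of envelope genes (filled) and of all genes (open) at least 2-fold lower on the P2ry6-/- labelled array. Class medians stay below 0 under each processing shown, while the number of envelope genes past 2-fold runs from 16 of 50 after quantile normalization to 49 of 50 on the spike-in scale.

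Sprr genes and enzymes had lower medians than the other 3 classes under each processing shown. Of the 50 members, 13 were at least 2-fold lower on the main scale and under the 9 alternatives other than the restriction to single-gene probes. The enzymes among them were Casp14, Tgm1 and Tgm3, the last with probes at -3.71 and -0.64 on the main scale. The others were Lce1d and Lce6a among the Lce genes, Lelp1, and the Sprr2 genes Sprr2b, Sprr2d, Sprr2f, Sprr2g, Sprr2i, Sprr2j-ps and Sprr2k. No fused-type S100 gene was among the 13.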

How the data were processed

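Total RNA of 1 tumour sample per genotype was measured on single-colour arrays, and 0.2 µg of it was amplified into Cy3-labelled cRNA, per the labels' protocols. Spot intensities were extracted by the authors with Agilent Feature Extraction 10.7.1.1, per the submitters' processing notes. Per the file headers the processed intensity is background-subtracted and detrended, with no normalization between arrays, and both arrays lay on 1 slide in 1 scan. The authors also deposited log2 values of the same arrays. These correlated with the log2 processed intensity at r = 0.9997 (P2ry6-/- labelled) and 0.9999 (wild-type-labelled), both columns have a median of 4.96, and their sorted values differ by at most 0.00104. The sources used here do not give their method.

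The non-control spots numbered 59305, for 56605 probes. Saturation marked 0 spots, and 57.9% (P2ry6-/- labelled) and 57.8% (wild-type-labelled) of spots were well above background. The 186 spots marked as outliers on either array were left out. The log2 processed intensity minus each array's 75th percentile was averaged over the spots of a probe, and then over the probes of a gene that were well above background on both arrays. A gene was called at a difference of 1 log2 unit (2-fold). Gene names came from a RefSeq table of GRCm38.p6 by accession (32988 of 56594 probes), and members kept the array's own name. Probe positions are on mm9, per the file headers. Exon and untranslated region annotation was not used here. Of the 60 member probes, 53 name a single gene in RefSeq, 5 name several and 2 none.

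With 1 array per genotype no test was run, and the number of arrays limits the precision. The members, the lists, the naming rule (every member, and up to 4 genes of a list by size of difference, with a few others chosen after their values were seen) and the alternatives were chosen with earlier results of these data known. A gene that the naming rule takes is not reported here. Alternatives used Python 3.11.15 and limma 3.58.1 in R 4.3.3. The gene calculation was tested on simulated data.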

Additional observations from a re-analysis of the deposited data

How the results depend on the processing

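With 1 array per genotype no replicate can be left out and chance cannot be measured. The arrays are told apart by probe, signal over background and scaling alone, and Sprr2, Lce1 and Lce3 probes can read their near-identical neighbours. No paired analysis was possible because each group holds 1 array.

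No class median changed direction under any alternative. The number of members at least 2-fold lower on the P2ry6-/- labelled array, 32 on the main scale, was 16 after quantile normalization, 19 after loess normalization, 20 in the authors' deposited log2 values and 49 on the spike-in scale. The spike-in scale also moved the medians, to -1.55 for all members, -2.03 for Sprr genes, -1.49 for Lce genes, -1.42 for fused-type S100 genes, -1.57 for other precursors, -2.03 for enzymes, -1.23 for envelope partners, -0.82 for processing enzymes and -1.26 for transcription factors. This scale subtracts the 8 spike-in probes' mean difference, which was 0.46. Over all genes, 1002 were lower and 957 higher on the main scale. The counts were 578 lower and 368 higher with normexp (offset 50), 3123 lower and 320 higher on the spike-in scale, and 2135 lower and 2244 higher with no filter on dim probes. With the stricter filter 540 were higher. Of the single genes, 443 values stayed within the spread between probes and 53 moved further, 50 of them on the spike-in scale. The others were Sprr3 with normexp (-1.04), Sprr2a2 with the stricter filter (0.11) and Tgm3 with its brightest probe (-3.71). Restricting members to probes that name a single gene, an alternative chosen after seeing the data, left 30 of 47 at least 2-fold lower.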
